A study of Homo sapiens with 17 samples.

Results

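Adherent cells of a culture made with vitamin C were set against a culture made without it, both at 60 h after re-plating. The comparison rests on 2 of the 17 libraries of the series, chosen by their titles: adhered cells of the VC+ condition and the VC- culture of the time course. All cells descend from H1, a line of human embryonic stem cells, in which green fluorescent protein reports on GATA2, a transcription factor needed for blood stem cells to form. Endothelial cells made in the VC+ or the VC- condition were sorted for the reporter and re-plated. Both 60 h libraries are described as mixtures of endothelial and blood cells, and the labels do not say whether vitamin C was present after re-plating. On the VC+ side adhered and suspended cells have a library each, beside one of the undivided culture, and the labels do not say whether these 3 came from 1 culture. No such division is given for the VC- library, which may hold its own floating cells. Values of the undivided VC+ culture at 60 h, of the suspended VC+ cells at 60 h and of the VC+ and VC- cultures at 0, 24, 36 and 48 h are given beside the pair where they bear on it. Each condition and time has 1 library, so no difference between the conditions was tested, and a batch or culture effect and the condition cannot be told apart.

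Blood stem and progenitor cells of the embryo arise from a specialised endothelium, the haemogenic endothelium, whose cells turn off endothelial genes, turn on blood genes, round up and detach. RUNX1, GFI1, MYB and SPI1 are among the transcription factors that drive this step. Vitamin C keeps iron in the dioxygenases reduced, among them histone and DNA demethylases and the collagen hydroxylases. The question addressed here is how the cells that stay attached after vitamin C treatment differ from the untreated culture.

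The adherent VC+ library held 8117075 counted reads and the VC- 60 h library 7733898, within the range of 6214675 to 8794604 of the course libraries. Levels are read counts scaled to a common library total (CPM), so that 1 read was worth 0.123 CPM in adherent VC+ cells and 0.129 CPM in the VC- culture. Reads of mitochondrial genes made up 5.8% of the total in adherent VC+ cells and 5.1% in the VC- culture. Endothelial markers were present on both sides: all 10 (CDH5, PECAM1, KDR, TEK and others) had at least 5 CPM, with a summed level of 10690 CPM in adherent VC+ cells, 8973 CPM in the undivided VC+ culture, 2259 CPM in suspended VC+ cells and 9712 CPM in the VC- culture. The 10 blood markers summed to 127 CPM in adherent VC+ cells, 395 CPM in the undivided culture, 1856 CPM in suspended cells and 85.7 CPM in the VC- culture, and PTPRC, which encodes the pan-leukocyte protein CD45, had no read in either library of the pair. Adherent VC+ cells thus carried the endothelial markers at a summed level near that of the VC- culture, together with a low level of blood markers.

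Mesenchymal and smooth muscle markers (9 genes) summed to 582 CPM in adherent VC+ cells and 1445 CPM in the VC- 60 h culture, and to 978 CPM in the VC- 48 h culture. DCN was at 0 in adherent VC+ cells. Epithelial markers (6 genes) summed to 481 CPM in adherent VC+ cells and 1147 CPM in the VC- culture. Only 3 of the 6, the keratins KRT8, KRT18 and KRT19, had at least 5 CPM in either library, so this sum is one of keratins. Of the 6 genes, 1 in adherent VC+ cells and 3 in the VC- culture had 3 counts or fewer. In bulk RNA, fewer cells of a type and less RNA per cell cannot be told apart, and this holds for every gene group that follows.

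The undivided VC+ culture lay close to the adherent cells. Of 12831 genes with at least 5 CPM in 1 of the VC+ 60 h libraries, 63.1% had an undivided level within the range of the adherent and suspended levels, 26 genes lay 2-fold or more above both and 30 lay 2-fold or more below both. Among 289 genes at least 4-fold higher in suspended than in adherent cells, the undivided level stood at a median of 15.2% of the way from adherent to suspended (quartiles 12.5% and 18.1%). Among the 586 genes at least 4-fold lower in suspended cells, the median was 17.5% (quartiles 10.4% and 25.1%).

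Between adherent VC+ cells and the VC- culture, 12276 genes reached 5 CPM in one library or the other and were compared. A level 2-fold or more higher in adherent VC+ cells was seen for 183 genes (1.49%) and 2-fold or more lower for 311 genes (2.53%), so that 4.02% lay past 2-fold in either direction. The median log2 ratio was -0.01. The 95% counting interval excluded equal levels for 2166 genes on the higher side and 2360 on the lower side, and lay wholly past 2-fold for 64 higher and 122 lower genes. These intervals cover counting error only. For scale, 4.4% of genes lay past 2-fold between the VC- libraries of 60 and 48 h, which differ in time and not in treatment, and 2.98% between the undivided VC+ libraries of 60 and 48 h. The count of genes past 2-fold was therefore of the size found between neighbouring times of 1 condition.

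**Figure D1:**
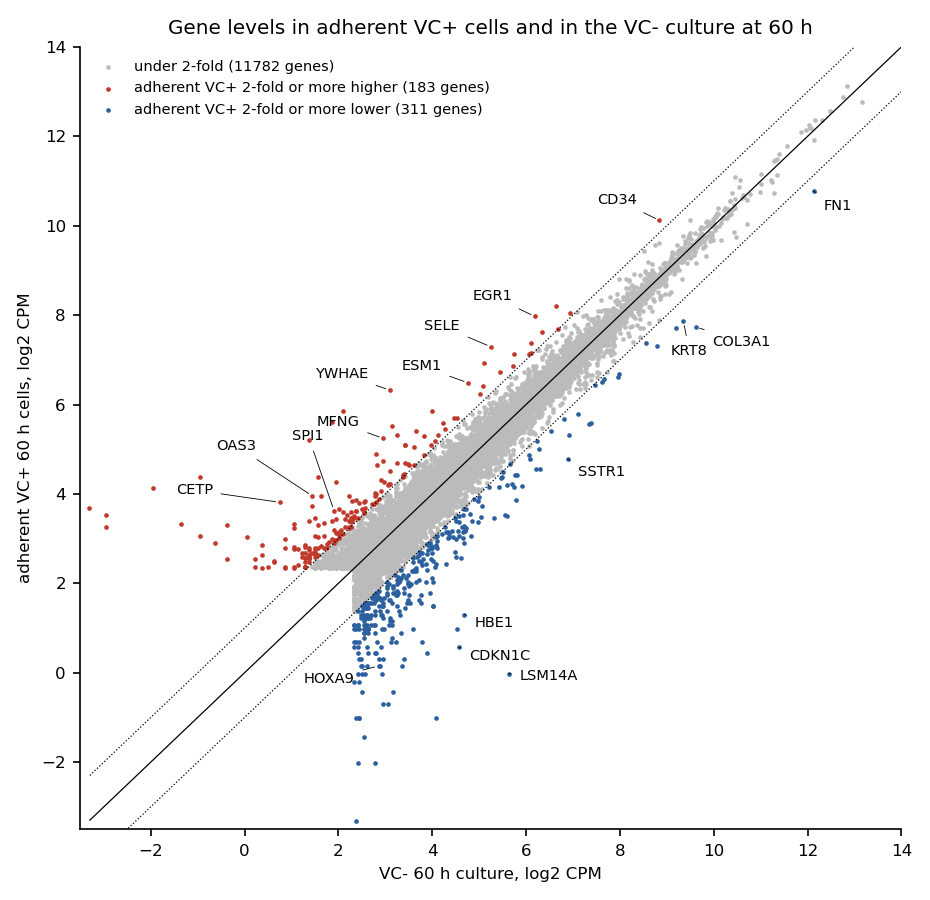
Level of each of 12276 genes in adherent VC+ 60 h cells (vertical axis) and in the VC- 60 h culture (horizontal axis), both log2 CPM, with 1 point per gene, solid line for equal levels and dotted lines for 2-fold. Levels under 0.1 CPM are drawn at 0.1 CPM. Most genes lie on the diagonal, 183 lie past 2-fold above it and 311 past 2-fold below it.

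The 0, 24, 36 and 48 h pairs of VC+ and VC- cultures share no library with the adherent comparison. Of the 183 genes higher in adherent VC+ cells, 123 (67.2%) were also higher in the VC+ than in the VC- culture at 0 h, 125 (68.3%) at 24 h, 141 (77%) at 36 h and 135 (73.8%) at 48 h, beside 50.6% to 51.9% of all compared genes. Of the 311 lower genes, 240 (77.2%) were lower in VC+ at 0 h, 236 (75.9%) at 24 h, 251 (80.7%) at 36 h and 241 (77.5%) at 48 h, beside 48.1% to 49.4% of all genes. In all 4 pairs, 63 of the 183 higher genes (34.4%, beside 13% of all genes) and 151 of the 311 lower genes (48.6%, beside 11.8%) had the direction seen in the adherent cells. The median log2 ratio of the lower genes was -0.50 at 0 h and -0.78 at 48 h.

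Grouped by function, 37 gene lists differed in where their members lay. The lowest list medians were those of erythroid genes (-1.43), epithelial genes and keratins (-1.23), cardiac genes (-0.73), mesenchymal and smooth muscle genes (-0.57) and collagens (-0.53). These medians, with VC- 48 h as the untreated library, were 0.10 for erythroid, -1.18 for epithelial, -0.20 for cardiac and -0.29 for mesenchymal genes and -0.18 for collagens. Their order depended on the minimum level. In the same order, they were -1.76, -0.43, -0.59, -0.76 and -0.55 over members with at least 1 CPM. Over members with at least 20 CPM they were -0.52, -1.23, 0.12, -0.43 and -0.50. At the other end stood cell cycle genes (0.50), lymphoid genes (0.37, over 2 genes), immediate early genes (0.36) and leukocyte genes (0.33), beside a median of -0.01 over all genes. Against VC- 48 h these medians were -0.57 for cell cycle, 1.14 for lymphoid, 0.66 for immediate early and 0.62 for leukocyte genes. Over members with at least 1 CPM the leukocyte median was 0.35 and the lymphoid median -0.21. The counting intervals of the 2 measured lymphoid genes held equality. Differences of 2-fold or more were in most lists carried by a few members.

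**Figure D2:**
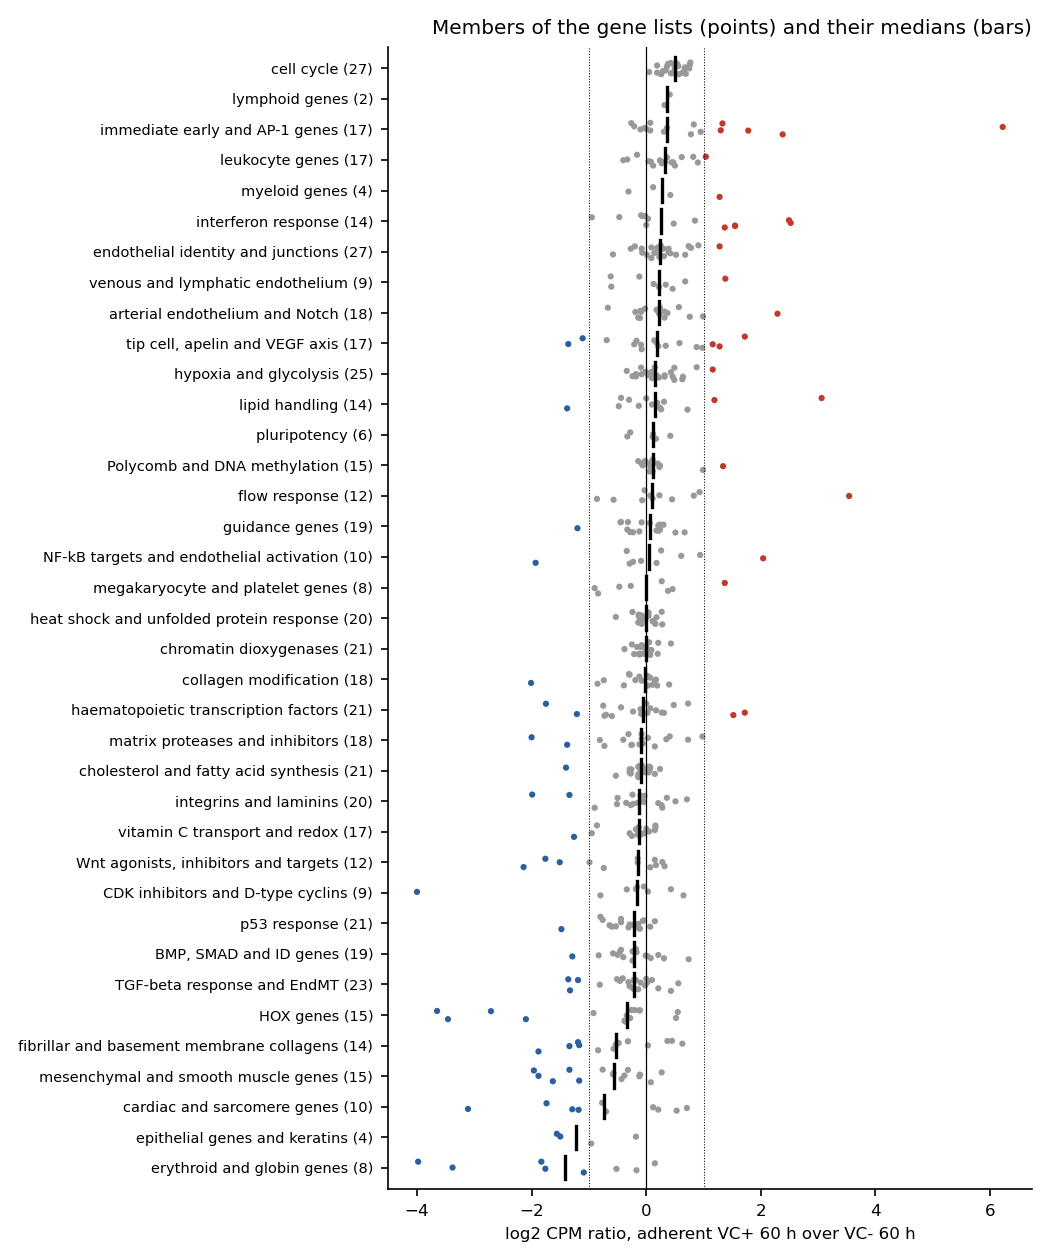
Log2 CPM ratio of adherent VC+ 60 h cells over the VC- 60 h culture for the members of 37 gene lists that reached 5 CPM in either library (number in brackets), with 1 point per gene and a bar at the list median. Dotted lines mark 2-fold, red points are 2-fold or more higher and blue points 2-fold or more lower. Erythroid, keratin, cardiac and mesenchymal members extend to the left, whereas every cell cycle member lies to the right of 0 without reaching 2-fold.

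Endothelial identity genes were slightly higher in adherent VC+ cells. Of 27 measured members, 22 were higher and 5 lower, beside 5890 of all 12276 genes on the higher side, with a median log2 ratio of 0.24. Past 2-fold higher was 1 member, beside 1.49% of all compared genes. The list median of the undivided VC+ culture over the same VC- library was -0.05, and that of adherent over undivided VC+ cells was 0.26. Against VC- 48 h the adherent median was 0.45. The member past 2-fold was CD34 (chromosome 1, 207880972 to 207911402, GRCh38), a surface sialomucin of endothelium and blood progenitors, at 1113 CPM in adherent VC+ cells, against 459 CPM in the VC- culture (log2 ratio 1.28, 95% counting interval 1.22 to 1.33). CD34 was also higher in VC+ at every earlier time: 1374, 1625, 1420 and 1074 CPM in the VC+ cultures of 0, 24, 36 and 48 h, against 499, 921, 824 and 552 CPM in the VC- cultures of those times. No VC- library of the course reached the adherent level.

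The tight junction gene CLDN5 stood at 213 CPM in adherent VC+ cells, against 114 CPM in the VC- culture (log2 ratio 0.91, interval 0.79 to 1.03). PODXL, a second sialomucin, had a log2 ratio of 0.78 and the adhesion molecule MCAM one of 0.74. Core endothelial genes lay closer to equality: CDH5, the cadherin of endothelial junctions, had a log2 ratio of 0.31, the VEGF receptor KDR 0.14 and PECAM1 -0.08. TEK, the receptor of the angiopoietins, was on the other side, at 367 CPM in adherent VC+ cells and 547 CPM in the VC- culture (-0.58, interval -0.64 to -0.51).

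Among 18 arterial and Notch genes the median log2 ratio was 0.22 and 1 gene passed 2-fold higher, beside 1.49% of all compared genes. MFNG (chromosome 22, 37469063 to 37486401), a glycosyltransferase that modifies Notch receptors, had 37.8 CPM in adherent VC+ cells, against 7.76 CPM in the VC- culture (log2 ratio 2.29, interval 1.88 to 2.71). From 24 to 60 h it ranged over 36.8 to 41.1 CPM in the undivided VC+ cultures and over 4.57 to 9.32 CPM in the VC- cultures, and it had 43.4 CPM in suspended VC+ cells. The VC+ and VC- ranges of MFNG did not overlap, and the share of all compared genes for which this holds was not counted. Of the Notch ligands, JAG2 had a log2 ratio of 0.76 and JAG1 one of -0.67, while DLL4 had -0.09 and the receptor NOTCH1 -0.11.

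SELE, which encodes the endothelial leukocyte receptor E-selectin, was found at 156 CPM in adherent VC+ cells, against 38.1 CPM in the VC- culture (log2 ratio 2.04, interval 1.85 to 2.22). At 0 h its levels were 33.4 CPM in VC+ and 46.5 CPM in VC-, and from 24 to 60 h they were 104 to 162 CPM in undivided VC+ cultures and 32.1 to 40.6 CPM in VC- cultures. SELE was low in suspended VC+ cells (20.8 CPM). Other genes of endothelial activation did not share its ratio: ICAM1 had -0.34, CCL2, a monocyte chemokine, had -1.93, and the 10 measured members of that list had a median of 0.05.

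Tip cell and apelin genes went both ways. ESM1, a proteoglycan of sprouting tip cells, had 89.7 CPM in adherent VC+ cells, against 27.2 CPM in the VC- culture (log2 ratio 1.72, interval 1.50 to 1.95), whereas in the 48 h pair its levels were 72.8 CPM in VC+ and 68.2 CPM in VC-. The apelin receptor APLNR stood at 140 CPM in adherent VC+ cells, against 53.8 CPM in the VC- culture (1.38), and the peptide hormone gene ADM at 18.5 CPM in adherent VC+ cells, against 8.28 CPM in the VC- culture (1.16). The apelin gene APLN had 159 CPM in adherent VC+ cells, against 86.8 CPM in the VC- culture (0.88). In the 0, 24, 36 and 48 h pairs APLN was instead lower in VC+ (-1.90, -0.75, -0.69 and -0.31). ANGPT2, the angiopoietin that tip cells secrete, was lower in adherent VC+ cells, with 90.9 CPM against 196 CPM in the VC- culture (-1.11), as was the VEGF family ligand PGF (-1.36). Of the 17 measured genes of the tip cell list, 3 lay past 2-fold higher (beside 1.49% of all compared genes) and 2 past 2-fold lower (beside 2.53%). The 3 higher genes were ESM1, ADM and CD34, whereas APLNR belongs to the venous and lymphatic list.

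**Figure D3:**
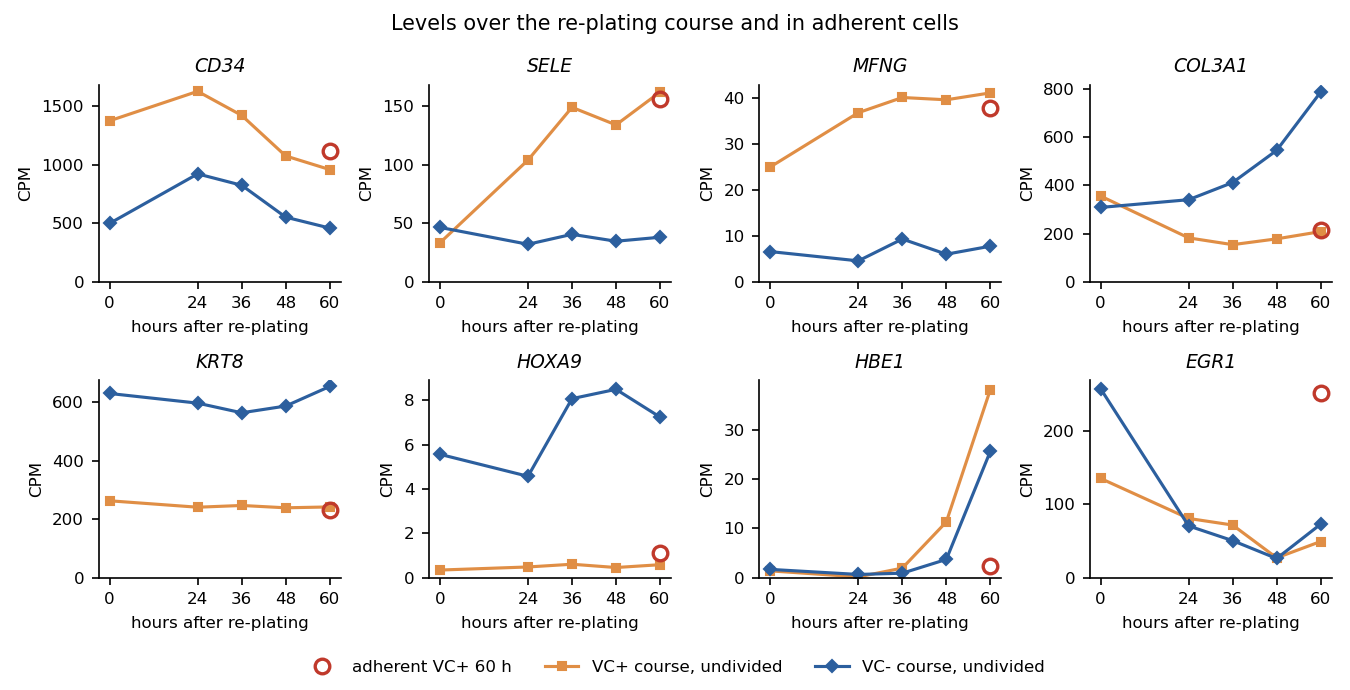
Levels in CPM of 8 genes over the re-plating course (hours on the horizontal axis) in undivided VC+ cultures (squares), undivided VC- cultures (diamonds) and adherent VC+ 60 h cells (open circle), with 1 library per point. The open circle lies close to the undivided VC+ 60 h point for SELE, MFNG, COL3A1, KRT8 and HOXA9, far below both 60 h cultures for HBE1 and far above both for EGR1.

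Blood transcription factors showed no common shift in adherent VC+ cells. Of 21 measured members, 9 were higher and 12 lower, beside 5890 and 6386 of all 12276 genes, and the median log2 ratio was -0.06. In each direction 2 passed 2-fold, beside 1.49% of all compared genes on the higher side and 2.53% on the lower. The undivided VC+ culture, read against the same VC- library, had a list median of 0.82. RUNX1, the master factor of the endothelial to blood transition, stood at 111 CPM in adherent VC+ cells and 116 CPM in the VC- culture (log2 ratio -0.06, interval -0.20 to 0.07), beside 181 CPM in the undivided VC+ culture and 502 CPM in suspended cells. MYB, a factor of blood progenitor growth, had 48.3 CPM in adherent VC+ cells and 51.8 CPM in the VC- culture (interval of the log2 ratio -0.31 to 0.10). GATA2 itself had 172 CPM in adherent VC+ cells, against 232 CPM in the VC- culture (-0.44, interval -0.54 to -0.33).

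The members past 2-fold higher were SPI1 and IKZF2. SPI1 (chromosome 11, 47354860 to 47378576) encodes the myeloid factor PU.1. It had 12.3 CPM (100 reads) in adherent VC+ cells, against 3.75 CPM (29 reads) in the VC- culture, a log2 ratio of 1.72 (interval 1.11 to 2.37). Its levels at 0, 24, 36 and 48 h were 6.08, 6.11, 11 and 14.8 CPM in VC+ cultures and 1.03, 0.784, 0.341 and 1.7 CPM in VC- cultures. SPI1 was the higher in VC+ at each of these times. The undivided VC+ culture of 60 h had 33.7 CPM and suspended cells 144 CPM. IKZF2, a lymphoid zinc finger factor, had a log2 ratio of 1.52 at low levels (5.17 CPM in adherent VC+ cells, against 1.81 CPM in the VC- culture), and LMO2, an adaptor of blood transcription complexes, had 0.73. GFI1, a repressor of endothelial genes, lay on the lower side, with 7.27 CPM in adherent VC+ cells and 16.8 CPM in the VC- culture (-1.21, interval -1.68 to -0.75). In the 0, 24, 36 and 48 h pairs the GFI1 ratio was -1.30, -0.71, -0.29 and 0.74, so that VC+ was the higher at 48 h. KLF1, the erythroid master factor, was also lower, with 1.72 CPM in adherent VC+ cells and 5.82 CPM in the VC- culture (-1.75, interval -2.73 to -0.86).

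Leukocyte genes leaned higher, with 14 of 17 measured members above equality, beside 5890 of all 12276 genes, and a median log2 ratio of 0.33. Past 2-fold higher was 1 member, beside 1.49% of all compared genes. LCP1, which encodes the actin bundler L-plastin, had 21.3 CPM in adherent VC+ cells, against 10.3 CPM in the VC- culture (1.04, interval 0.65 to 1.44), and the guanine exchange factor VAV1 had 37.1 CPM in adherent VC+ cells, against 19.9 CPM in the VC- culture (0.90). The myeloid lectin CD33 was at 9.12 CPM in adherent VC+ cells and 3.75 CPM in the VC- culture (1.28), and the platelet receptor gene GP1BA at 8.38 CPM in adherent VC+ cells and 3.23 CPM in the VC- culture (1.37). SPN, the leukocyte sialomucin CD43, did not differ beyond its counting interval, with 8.13 CPM in adherent VC+ cells and 7.5 CPM in the VC- culture (0.12, interval -0.41 to 0.65). Each of these genes was far higher in suspended VC+ cells, where SPN reached 264 CPM, LCP1 278 CPM and VAV1 128 CPM.

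Expressed as a share of the suspended VC+ level, these blood genes stood at different heights in the adherent library. VAV1 was at 29.1% of its suspended level in adherent VC+ cells and 15.6% in the VC- culture, and RUNX1 at 22.1% in adherent VC+ cells and 23.1% in the VC- culture. SPI1 was at 8.55% in adherent VC+ cells and 2.6% in the VC- culture, and SPN at 3.08% in adherent VC+ cells and 2.84% in the VC- culture. HBE1, an embryonic globin gene, was at 1.09% in adherent VC+ cells and 11.4% in the VC- culture. The adherent share was the higher for VAV1 and SPI1, the lower for HBE1, and close to that of the VC- culture for RUNX1 and SPN. Whether the blood genes of either library came from floating cells was not tested.

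Erythroid and globin genes were the list furthest below equality. Of 8 measured members, 7 were lower in adherent VC+ cells, beside 6386 of all 12276 genes. Past 2-fold lower were 5 of them, beside 2.53% of all compared genes, and the median log2 ratio was -1.43. HBE1, HBG2 and HBD reached 5 CPM in the VC- library only, so that they could only be lower. The list median was -0.52 over the members with at least 20 CPM and -0.79 with 5 CPM added. HBE1, the embryonic beta-like globin, had 2.46 CPM (20 reads) in adherent VC+ cells, against 25.6 CPM (198 reads) in the VC- culture, a log2 ratio of -3.38 (interval -4.12 to -2.71). Fetal globin HBG2, whose reads cannot be told with certainty from those of its near-identical copy HBG1, had 4.07 CPM in adherent VC+ cells and 14.5 CPM in the VC- culture, and ANK1, the red cell ankyrin, had 7.52 CPM in adherent VC+ cells and 25.5 CPM in the VC- culture.

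HBE1 and HBG2 were high in the suspended VC+ cells: HBE1 stood there at 225 CPM and HBG2 at 307 CPM. The undivided VC+ culture had 38.1 CPM of HBE1 and a list median of 0.67 over the same VC- library. The 8 erythroid markers summed to 8.75 CPM in adherent VC+ cells and 57.7 CPM in the VC- 60 h culture, and to 10 CPM in the VC- 48 h culture. With VC- 48 h as the untreated library the list median turned to 0.10. As a list, the lower erythroid level of adherent VC+ cells thus held against the VC- culture of 60 h and not against that of 48 h, where HBE1 had 3.7 CPM. The part of the division into adherent and suspended cells in this result was not tested.

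**Figure D4:**
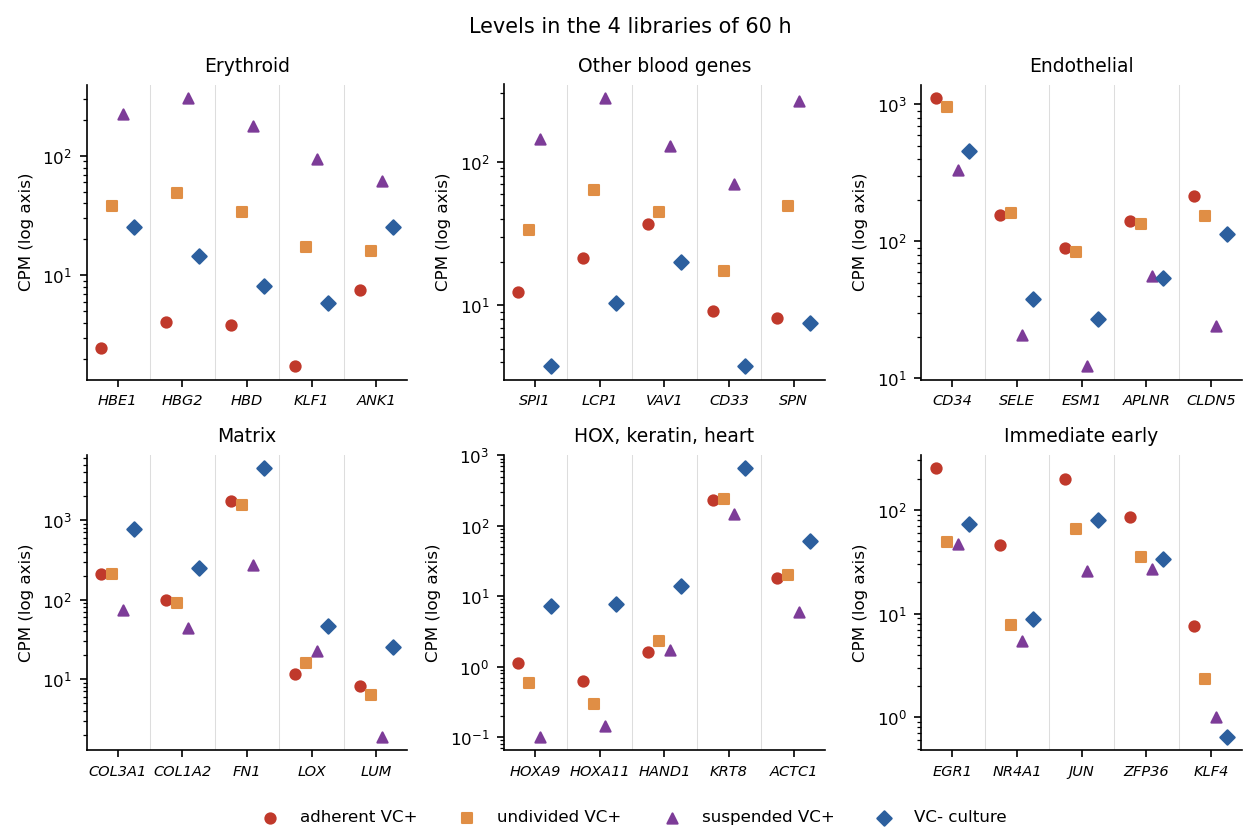
Levels in CPM (log axis) of 30 genes in the 4 libraries of 60 h: adherent, undivided and suspended VC+ and the VC- culture, with 1 library per point and a level of 0 (HOXA9 in suspended cells) drawn at 0.1 CPM. Erythroid genes are lowest in adherent VC+ cells, matrix, HOX, keratin and heart genes are highest in the VC- culture, and immediate early genes are highest in adherent VC+ cells. KLF4, drawn with the immediate early genes, belongs to the flow response list.

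COL3A1, COL1A1, COL1A2 and most mesenchymal genes were lower in adherent VC+ cells. Of 14 measured collagens, 10 were lower, beside 6386 of all 12276 genes, and 4 of these past 2-fold, beside 2.53% of all compared genes. The summed level of the list was, in contrast, 6551 CPM in adherent VC+ cells and 6479 CPM in the VC- culture. COL3A1 (chromosome 2, 188974320 to 189012746), a fibrillar collagen of soft tissue, had 213 CPM in adherent VC+ cells, against 785 CPM in the VC- culture (log2 ratio -1.88, interval -1.96 to -1.80). At 0, 24, 36 and 48 h it had 355, 182, 154 and 178 CPM in VC+ cultures and 308, 340, 411 and 544 CPM in VC- cultures. COL3A1 levels were thus close at 0 h and apart at each later time. COL1A1 had 167 CPM in adherent VC+ cells and 376 CPM in the VC- culture (-1.17), and COL1A2 98.7 CPM in adherent VC+ cells and 250 CPM in the VC- culture (-1.34). Lumican (LUM), a proteoglycan that binds collagen fibrils, had 8.13 CPM in adherent VC+ cells, against 25.2 CPM in the VC- culture (-1.63).

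Of 15 measured mesenchymal and smooth muscle genes, 13 were lower and 5 of these past 2-fold, beside 6386 of 12276 genes lower and 2.53% past 2-fold lower among all compared genes, while the smooth muscle actin gene ACTA2 had a log2 ratio of -0.12. Fibronectin (FN1) had 1751 CPM in adherent VC+ cells, against 4480 CPM in the VC- culture (-1.36, interval -1.38 to -1.33). Of the basement membrane collagens, a pair was on the higher side: COL4A1 had 2170 CPM in adherent VC+ cells, against 1406 CPM in the VC- culture (0.63, interval 0.59 to 0.66), and COL4A2 had a ratio of 0.45. LOX, which crosslinks collagen, was at 11.6 CPM in adherent VC+ cells and 46.7 CPM in the VC- culture (-2.01, interval -2.35 to -1.68), and it was lower in VC+ than in VC- at each time of the course. The list of collagen modification genes, LOX and the vitamin C dependent hydroxylases included, centred on equality, with a median log2 ratio of -0.03 over 18 genes. Next to LOX, its lowest members were the collagen hydroxylase P3H2, with 33.4 CPM in adherent VC+ cells and 60.4 CPM in the VC- culture (-0.85, interval -1.08 to -0.64), and LOXL1 (-0.74), and its highest was P4HA1 (0.40).

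Genes of TGF-beta response leaned lower, with 17 of 23 members below equality, beside 6386 of all 12276 genes, and a median of -0.22. The 3 past 2-fold lower, beside 2.53% of all compared genes, were FN1 and the latent TGF-beta binding proteins LTBP2 (-1.33) and LTBP3 (-1.19). The transcription factors of endothelial to mesenchymal transition did not share this: SNAI1 had a log2 ratio of 0.43, SNAI2 -0.31, ZEB1 0.00 and ZEB2 0.10. Levels of the mesenchymal markers, given above, moved with these genes, and their part in the result was not tested. The markers include COL1A1, COL3A1 and LUM, so their sum is not separate from the collagen results. COL3A1 alone held 785 of the 1445 CPM in the VC- culture and 213 of the 582 CPM in adherent VC+ cells.

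Keratins, several HOXA genes and heart factors were lower in adherent VC+ cells, as they were in the VC+ cultures of the course. KRT8, a simple epithelial keratin, had 232 CPM in adherent VC+ cells, against 654 CPM in the VC- culture (log2 ratio -1.50, interval -1.57 to -1.42), and ranged over 239 to 247 CPM in undivided VC+ cultures and 564 to 654 CPM in VC- cultures from 24 to 60 h. Its partner KRT18 had 236 CPM in adherent VC+ cells and 459 CPM in the VC- culture (-0.96), and KRT19 had 11.2 CPM in adherent VC+ cells and 33 CPM in the VC- culture (-1.56). The 4 measured genes of this list were all on the lower side. The fourth, the claudin gene CLDN7, had 18.6 CPM in adherent VC+ cells and 21.1 CPM in the VC- culture, and its interval (-0.51 to 0.15) held equality.

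Among 12 HOX genes and 3 of their cofactors, the 4 past 2-fold were all lower, beside 2.53% of all compared genes, and all from the HOXA cluster on chromosome 7. These 4 reached 5 CPM in the VC- library only, so that, once compared, they could only be lower. HOXA9, a factor of blood stem cells, had 1.11 CPM (9 reads) in adherent VC+ cells, against 7.24 CPM (56 reads) in the VC- culture (log2 ratio -2.71, interval -3.91 to -1.68). From 24 to 60 h it lay between 0.458 and 0.606 CPM in undivided VC+ cultures and between 4.57 and 8.49 CPM in VC- cultures. HOXA10 had 0.493 CPM in adherent VC+ cells and 5.43 CPM in the VC- culture. For HOXA11 the adherent VC+ level was 0.616 CPM and the VC- level 7.76 CPM, and for HOXA13 the adherent VC+ level was 3.08 CPM and the VC- level 13.2 CPM. The VC- level was the higher for each of them, and in adherent VC+ cells HOXA10 and HOXA11 rest on 4 and 5 reads. The measured HOXB genes were lower by less: HOXB9 had a ratio of -0.92 and HOXB2 to HOXB8 ranged between -0.38 and -0.11. The cofactor MEIS1 (0.55) was on the higher side.

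In the heart, HAND1 and GATA4 act as transcription factors and ACTC1 encodes cardiac actin. HAND1 had 1.6 CPM in adherent VC+ cells, against 13.8 CPM in the VC- culture (log2 ratio -3.11, interval -4.07 to -2.28). GATA4 had 27.5 CPM in adherent VC+ cells, against 67.4 CPM in the VC- culture (-1.29), and ACTC1 had 18 CPM in adherent VC+ cells, against 60.3 CPM in the VC- culture (-1.74). Each was also lower in the VC+ culture at 0 h, where HAND1 had 34.3 CPM in VC+ and 123 CPM in VC- cells. MYL4, an atrial myosin light chain with 150 CPM in suspended cells, had 4.56 CPM in adherent VC+ cells and 10.3 CPM in the VC- culture (-1.18), and its ratio at 48 h had the other sign (1.94). Of 10 measured cardiac genes these 4 lay past 2-fold lower, beside 2.53% of all compared genes, and none past 2-fold higher. HAND1 and MYL4 reached 5 CPM in the VC- library only, so that they could only be lower. The list median of -0.73 was 0.12 over the members with at least 20 CPM.

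Interferon response genes held 5 members past 2-fold higher among 14 measured, beside 1.49% of all compared genes, none past 2-fold lower, and a median of 0.26, which was 1.05 with VC- 48 h as the untreated library and -0.01 over the members with at least 20 CPM. OAS3, an antiviral sensor of double-stranded RNA, had 15.5 CPM in adherent VC+ cells, against 2.72 CPM in the VC- culture (log2 ratio 2.52, interval 1.84 to 3.26). IFI6, an interferon-induced membrane protein gene, had 7.27 CPM in adherent VC+ cells, against 1.29 CPM in the VC- culture (2.49, interval 1.51 to 3.62). IFIT1, which binds viral RNA, had 48 CPM in adherent VC+ cells, against 18.6 CPM in the VC- culture (1.37, interval 1.09 to 1.65). IFIT2 had a ratio of 1.55. OAS3, IFI6 and IFIT2 reached 5 CPM in the adherent VC+ library only, so that they could only be higher. From 24 to 60 h the undivided VC+ and VC- ranges did not overlap for OAS3, IFI6 or IFIT1, the last of which had 34 to 59.2 CPM in VC+ and 6.92 to 18.6 CPM in VC- cultures. The share of all compared genes with ranges apart in this way was not counted.

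Among the other members of the interferon list, ISG15 had a log2 ratio of 0.85 and IFIT3 of 0.48, whereas BST2 (0.03) lay at equality and B2M (-0.47) and IFITM1 (-0.95) on the lower side. STING1 (chromosome 5, 139475534 to 139482935), an adaptor of DNA sensing that activates interferon, was among the 12 genes furthest on the higher side, with 39.9 CPM in adherent VC+ cells, against 9.57 CPM in the VC- culture (2.06, interval 1.69 to 2.45). In the undivided cultures from 24 to 60 h it held 30.7 to 46.3 CPM in VC+ and 8.18 to 9.57 CPM in VC-.

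The promoters of the 3 higher interferon genes with an entry in the RefSeq promoter table are shown because each holds the core of the interferon-stimulated response element, GAAANNGAAA, on either strand. The sequences are the 170 bases before the RefSeq start (GRCh38.p14), with the matches in capitals. They lie at chr10:89392453-89392622 (plus strand), chr12:112938304-112938473 (plus strand) and chr1:27672193-27672362 (minus strand). Each window ends at the base before the RefSeq start, and the wider gene bounds of GENCODE 29 reach into all 3.
IFIT1: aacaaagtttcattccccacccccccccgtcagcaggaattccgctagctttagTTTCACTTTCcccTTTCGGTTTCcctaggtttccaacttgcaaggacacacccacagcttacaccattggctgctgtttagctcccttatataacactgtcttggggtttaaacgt
OAS3: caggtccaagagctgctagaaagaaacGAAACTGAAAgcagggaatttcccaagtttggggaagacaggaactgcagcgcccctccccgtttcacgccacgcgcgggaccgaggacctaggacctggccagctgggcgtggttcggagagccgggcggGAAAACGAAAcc
IFI6: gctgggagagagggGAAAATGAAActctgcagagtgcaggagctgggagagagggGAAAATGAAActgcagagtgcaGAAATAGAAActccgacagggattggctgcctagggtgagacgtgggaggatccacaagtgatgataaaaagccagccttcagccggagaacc
In the 250 bases before the start, this core was present in all 3 of these genes, in 6 of the 8 other measured members of the list with an entry, and in 3.02% of all 35116 promoters. Members with and without a 2-fold difference both held the core, so its presence did not separate them.

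Several immediate early genes had their highest 60 h level in adherent VC+ cells. EGR1 (chromosome 5, 138465490 to 138469315), a zinc finger factor induced within minutes of stimulation, had 251 CPM in adherent VC+ cells, against 72.8 CPM in the VC- culture (log2 ratio 1.78, interval 1.65 to 1.92), beside 49.2 CPM in the undivided VC+ culture and 46.7 CPM in suspended VC+ cells. The nuclear receptor gene NR4A1 had 45.7 CPM in adherent VC+ cells, against 8.79 CPM in the VC- culture (2.38), with 7.76 CPM in the undivided culture and 5.46 CPM in suspended cells. For both genes the undivided VC+ level lay near the suspended level and not near the adherent one, whereas genes that differed 4-fold between adherent and suspended cells had undivided levels nearer to the adherent ones.

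JUN, a subunit of AP-1, had 198 CPM in adherent VC+ cells and 80.4 CPM in the VC- culture (1.30), and ZFP36, which destabilises messenger RNA, had 84.8 CPM in adherent VC+ cells and 33.7 CPM in the VC- culture (1.33). KLF4, a factor induced by laminar flow, belongs to the flow response list. It had 7.52 CPM in adherent VC+ cells and 0.647 CPM (5 reads) in the VC- culture (3.54, interval 2.24 to 5.21). KLF4 was the 1 member past 2-fold among 12 measured in that list, whose median was 0.10. For EGR3 the ratio rests on 78 reads in adherent VC+ cells and 1 read in the VC- culture (6.22, interval 3.70 to 11.54). The immediate early list had 5 of 17 measured members past 2-fold higher, beside 1.49% of all compared genes, and a median of 0.36. Its median between adherent and undivided VC+ cells was 0.87. The 0 h libraries, taken at the start of re-plating, also had high levels, with 135 CPM of EGR1 in VC+ and 257 CPM in VC-, and with 81.6 CPM of NR4A1 in VC+ and 179 CPM in VC-. The adherent VC+ level of EGR1 at 60 h lay between the levels of these 0 h libraries.

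The EGR1 promoter is printed because it carries 2 CArG boxes, the binding motif of serum response factor, marked in capitals in the 170 bases before the RefSeq start, chr5:138465309-138465478, plus strand, GRCh38.p14.
EGR1: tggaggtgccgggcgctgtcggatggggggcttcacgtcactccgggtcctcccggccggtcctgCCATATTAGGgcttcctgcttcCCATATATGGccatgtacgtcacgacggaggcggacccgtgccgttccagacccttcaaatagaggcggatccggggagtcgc
The motif was present in the 250 bases before the start of 2 of the 14 list members with a promoter entry, EGR1 and SRF, and in 1.16% of all promoters. It was found in 1 of the 4 members past 2-fold higher with an entry and in 1 of the 9 other measured members. JUN, NR4A1 and ZFP36 had no match, so its presence did not mark the higher members. SRF, which encodes the factor itself, had a log2 ratio of 0.07.

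Cell cycle genes were higher in adherent VC+ cells in 27 of 27 measured members, beside 5890 of all 12276 genes. None was past 2-fold, and the median log2 ratio was 0.50. MKI67, a marker of cycling cells, had 170 CPM in adherent VC+ cells, against 99.9 CPM in the VC- culture (0.77, interval 0.64 to 0.90), and the mitotic checkpoint kinase BUB1 had 66.3 CPM in adherent VC+ cells, against 39 CPM in the VC- culture (0.76). The VC- library of 60 h was low for this list: its median against VC- 48 h was -1.14, and MKI67 stood at 270 CPM in the VC- 48 h culture. In the 48 h pair the list median was 0.15. With VC- 48 h as the untreated library, the median of adherent VC+ cells was -0.57, the opposite side of equality.

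Targets of p53 were lower in 19 of 21 members, beside 6386 of all 12276 genes, with a median of -0.22. GDF15, a stress-induced cytokine, had 18.6 CPM in adherent VC+ cells, against 51.8 CPM in the VC- culture (log2 ratio -1.48, interval -1.76 to -1.21), and the cell cycle inhibitor CDKN1A had 228 CPM in adherent VC+ cells, against 396 CPM in the VC- culture (-0.80, interval -0.88 to -0.72). CDKN1A was lower in VC+ at each of 0, 24, 36 and 48 h, with 61.4, 89.6, 106 and 169 CPM in VC+ and 197, 149, 208 and 319 CPM in VC- cultures. Both conditions had more CDKN1A at each later time from 24 h on.

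Signalling genes with 2-fold differences were scattered. The Wnt target AXIN2 had 2.83 CPM in adherent VC+ cells, against 9.57 CPM in the VC- culture (log2 ratio -1.76), and the target SP5 had 1.23 CPM in adherent VC+ cells, against 5.43 CPM in the VC- culture (-2.14). The Wnt inhibitor DKK1 had 9.12 CPM in adherent VC+ cells, against 26 CPM in the VC- culture (-1.51). These 3 were the Wnt genes past 2-fold among 12 measured of 25 listed, beside 2.53% of all compared genes past 2-fold lower, and the list median was -0.15. AXIN2 and SP5 reached 5 CPM in the VC- library only, so that they could only be lower. SP5 rests on 10 reads in adherent VC+ cells. BMP2, a ligand of the BMP pathway, had a ratio of -1.29, its inhibitor BMPER one of 0.74 and the target ID3 one of -0.44.

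Chromatin dioxygenases, which vitamin C can serve, differed little. None of 21 passed 2-fold, and their ratios ranged between -0.38 and 0.43 with a median of -0.01. KDM6A and KDM6B, the demethylases of histone H3 lysine 27 named in the title of the series, did not reach 2-fold: KDM6A had 34.5 CPM in adherent VC+ cells and 37.1 CPM in the VC- culture (interval of the log2 ratio -0.35 to 0.14), and KDM6B had 75 CPM in adherent VC+ cells and 86.5 CPM in the VC- culture (-0.37 to -0.04). EZH2, which writes that mark, had a ratio of 0.23 (interval 0.02 to 0.45). Of 17 genes of vitamin C transport and redox defence, 13 were lower, beside 6386 of all 12276 genes. Past 2-fold lower was 1 gene, beside 2.53% of all compared genes. This was GSTO2, which reduces oxidised vitamin C, with 3.94 CPM in adherent VC+ cells and 9.44 CPM in the VC- culture (-1.26). The vitamin C transporter SLC23A2 had a ratio of 0.16.

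Of 14 measured lipid handling genes, 2 lay past 2-fold higher (beside 1.49% of all compared genes) and 1 past 2-fold lower (beside 2.53%), with a median of 0.14. CETP, which exchanges lipids between lipoproteins, had 14 CPM in adherent VC+ cells, against 1.68 CPM in the VC- culture (log2 ratio 3.06, interval 2.23 to 4.02). Its undivided levels from 24 to 60 h were 9.49 to 10.5 CPM in VC+ and 1.31 to 2.93 CPM in VC- cultures. The cholesterol exporter ABCG1 had 39.9 CPM in adherent VC+ cells, against 17.5 CPM in the VC- culture (1.19). The fat cell receptor PPARG had 5.3 CPM in adherent VC+ cells, against 13.8 CPM in the VC- culture (-1.38). The other 11 measured members stayed under 2-fold.

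The remaining genes furthest from equality by their counting interval include surface proteins and enzymes of the matrix. EMILIN1, an elastic fibre glycoprotein, had 29.8 CPM in adherent VC+ cells, against 6.98 CPM in the VC- culture (2.09), and 66.3 CPM in suspended cells. SSTR1, a somatostatin receptor, had 27.3 CPM in adherent VC+ cells, against 119 CPM in the VC- culture (-2.12, interval -2.33 to -1.90). At 0 h SSTR1 levels were 10.6 CPM in VC+ and 11.2 CPM in VC-, and at 48 h they were 17.6 CPM in VC+ and 81.6 CPM in VC-, so that the gap was found after re-plating. The heparan sulfate proteoglycan SDC2 (-2.08), the heparan sulfatase SULF1 (-1.79) and the amino acid transporter SLC7A8 (-1.80) were likewise lower in adherent VC+ cells.

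Several of the widest ratios came from genes whose level jumped in single libraries. LSM14A had 0.986 CPM in adherent VC+ cells and 49.5 CPM in the VC- 60 h library, with at most 5.17 CPM in the other 11 count libraries. YWHAE had 80.1 CPM in adherent VC+ cells and 8.53 CPM in the VC- culture, with at most 11.2 CPM in any library other than the adherent one. CDKN1C, an inhibitor of the cell cycle, had 1.48 CPM in adherent VC+ cells and 23.7 CPM in the VC- 60 h library, and at most 3.53 CPM in the others. RN7SL2, CCDC92, RAB11FIP3, FAM156B and ADI1 also differed widely between libraries of 1 condition.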

How the data were processed

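The authors deposited 1 table of raw read counts per gene for each of 13 libraries (course, adherent, suspended), and 4 tables of sorted cells that were not used here. Per the labels, libraries were made with a TruSeq kit from 1 µg of Trizol RNA. Per the submitters' processing notes, the tools included DESeq 1.18.1, HTSeq 0.6.0, HISAT2 2.0.4 and SAMtools 1.3.1, and the build was hg38 (GRCh38). The annotation and strand setting of the counting are not given in the sources used here, so counts of overlapping, antisense and near-identical genes are uncertain.

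Of 58302 identifiers, 57532 were named from the gene table and the rest, where possible, from GENCODE 29 (GRCh38), which also gave coordinates. CPM are scaled to the library total, which was 8117075 in adherent VC+ cells and 7733898 in the VC- culture. Log2 ratios carry exact conditional binomial intervals at 95% (scipy 1.17.1), which cover no more than counting error, as PCR copies of 1 molecule are counted as separate reads. A count of 0 was set to 3 counts for a ratio. The ratio was checked on simulated counts. Genes that reached 5 CPM in either library were compared, and past 2-fold means a log2 ratio of 1 or more either way. A gene that reached 5 CPM in 1 library only could differ only toward that library. This limits every count of members and of all genes. With 1 library a group no test was made, and p-values were not computed.

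Named genes were the 12 furthest each way by the interval bound nearest to 0 (at least 20 CPM in the higher library), 16 set genes, and up to 5 members of each of 37 lists by the same bound, and further list members were named after their values were seen. Some genes that this rule takes in are not reported here. The members and lists were chosen with earlier results of these data known. Alternatives were TMM scaling (edgeR 4.0.16), DESeq2 1.42.0 size factors, other minimum levels, added CPM, leaving out mitochondrial genes and VC- 48 h as the untreated library. Promoters are those of RefSeq (GRCh38.p14), of which 35116 were searched on both strands.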

Additional observations from a re-analysis of the deposited data

Results flagged for a closer look

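For 6 genes, the ratio of adherent VC+ cells over the VC- culture at 60 h lay past 2-fold on one side of equality and that of the undivided 48 h pair past 2-fold on the other. Each side is 1 pair of libraries, and the difference was not tested. Apart from CCDC92, all were higher in the suspended than in the adherent VC+ cells. HBE1 had a log2 ratio of -3.38 in adherent cells and 1.61 at 48 h, HBG2 -1.83 in adherent cells and 2.11 at 48 h, and HBD, the delta globin gene, -1.09 in adherent cells and 2.79 at 48 h. The erythroid factor KLF1 had -1.75 in adherent cells and 1.24 at 48 h, and the myosin light chain MYL4 -1.18 in adherent cells and 1.94 at 48 h. CCDC92 had a log2 ratio of 3.76 in adherent cells and -4.50 at 48 h, and its level jumped among libraries of 1 condition, with 55.2 CPM at 48 h and 4.27 CPM at 60 h in VC-.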

How the results depend on the processing

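Counts of genes past 2-fold, 183 higher and 311 lower, were 229 and 274 with TMM scaling, 199 and 300 with DESeq2 size factors, 198 and 309 without mitochondrial genes and 157 and 277 with 0.5 CPM added. They depended on the minimum level: 756 higher and 1067 lower with at least 1 CPM, 2841 and 3659 with no minimum, and 52 and 80 with at least 20 CPM. With 5 CPM added they were 59 and 94, with the counting interval wholly past 2-fold 64 and 122, and with VC- 48 h as the untreated library 299 and 287. Against both VC- 60 h and VC- 48 h, a rule chosen after seeing the data, 85 genes were higher and 113 lower. With VC- 48 h, the erythroid list median turned to 0.10 and the log2 ratios of CDKN1C to 0.45, FAM156B to 2.68, HBG2 to 0.72, HBD to 2.31 and MYL4 to 0.80. The cause was not tested. Against VC- 48 h, 21 further medians of the 37 lists moved by more than a typical member's counting error, and the ratios of 117 of 194 named genes moved out of their counting interval. By the same measure, 4 list medians moved with at least 1 CPM and 4 with at least 20 CPM. Of 80 named genes past 2-fold, 75 had the same direction against VC- 48 h and 47 were 2-fold or more. Most named genes were picked by this ratio, and both ratios use the same adherent library. Their agreement was thus partly built in and is no separate support. Among all compared genes, 85 of the 183 higher and 113 of the 311 lower genes were 2-fold or more against both VC- libraries. No paired analysis was possible because the adherent comparison has 1 library a group, with no replicate number. At this depth a gene under 0.37 CPM in adherent VC+ cells rests on fewer than 3 reads.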

Other observations

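Hypoxia and glycolysis genes leaned higher in adherent VC+ cells, with 18 of 25 measured members above equality, beside 5890 of all 12276 genes. The median log2 ratio was 0.16 and 1 member, ADM, passed 2-fold higher, beside 1.49% of all compared genes. The oxygen sensor gene EGLN3 had 25.6 CPM in adherent VC+ cells, against 14 CPM in the VC- culture (0.88, interval 0.53 to 1.22), and the mitophagy gene BNIP3 had 64.7 CPM in adherent VC+ cells, against 41.5 CPM in the VC- culture (0.64). Cholesterol and fatty acid synthesis genes leaned the other way, with 15 of 21 lower, beside 6386 of all 12276 genes, and a median of -0.10. SCD, a fatty acid desaturase, had 2019 CPM in adherent VC+ cells and 2411 CPM in the VC- culture (-0.26). Heat shock and unfolded protein response genes centred on equality (median -0.01 over 20 genes, none past 2-fold).

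Proteases and guidance genes differed by member. MMP9, a gelatinase, had 858 CPM in adherent VC+ cells, against 1427 CPM in the VC- culture (-0.73, interval -0.78 to -0.69). At 0, 24, 36 and 48 h it had 11.1, 54.9, 177 and 340 CPM in VC+ cultures and 12.7, 136, 422 and 675 CPM in VC- cultures, so that both conditions held more at each later time and the VC- level was the higher from 24 h on. ADAM12 had a ratio of 0.98 and the plasminogen activator PLAT one of -1.38. SEMA3A, a guidance ligand, had a ratio of -1.20, and SEMA3F one of 0.67.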
